A study of Mus musculus with 12 samples.

Results

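The proteasome genes were taken as every gene whose symbol begins with Psma, Psmb, Psmc, Psmd or Psme followed by a digit, which gave 45 of the 24421 genes counted in each library. Of these, 19 were core genes (Psma and Psmb) and 26 were regulatory genes (Psmc, Psmd and Psme), and 1 of the 26, Psmc3ip, matches by its symbol but encodes a partner of the recombination machinery that binds a proteasome ATPase and is not a subunit. The libraries were poly(A) RNA-seq of cardiomyocytes from mouse hearts at postnatal day 1 on the CD1 background. Glut1 transgenic hearts carried αMHC-hGLUT1tg, αMHC-Cre tg and the R26+/YFP reporter, so human GLUT1, a glucose transporter, and Cre were both driven by the α myosin heavy chain promoter of cardiomyocytes. WT hearts are given as wild type by the sample labels and as αMHC-Cre with the R26 YFP reporter by the study's methods, in which case Cre and YFP were common to all groups. Cells positive for YFP were sorted by Mitotracker, a dye of mitochondria, into a Mitotracker-high population, which the study calls Tnnt2low, and a Mitotracker-low population, which it calls Tnnt2high. There were 4 Glut1 transgenic hearts, each giving both populations, and 2 WT pairs whose names share heart number 9, so that both may come from 1 heart. Expression of the 45 genes was compared between populations and between genotypes, and between core and regulatory genes.

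The proteasome is the main protease of the cytosol and nucleus for proteins tagged with ubiquitin. Its barrel-shaped core particle is built from α subunits (Psma), which form the outer rings and gate the entry, and β subunits (Psmb), of which Psmb6, Psmb7 and Psmb5 carry the caspase-like, trypsin-like and chymotrypsin-like active sites. Interferon-inducible Psmb9, Psmb10 and Psmb8 can take the places of these catalytic subunits, and Psmb11 and Psma8 are counterparts of core subunits in thymus and testis. The regulatory particle sits on the core. Its base holds a ring of ATPases (Psmc) that unfold substrates, and its lid (Psmd) includes the deubiquitinase Psmd14. Psmd5, Psmd9 and Psmd10 are chaperones of base assembly, and Psme1, Psme2, Psme3 and Psme4 encode activators that can dock on the core without ATPases. In the heart, where contractile proteins turn over throughout life, the proteasome removes damaged and surplus sarcomere proteins.

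Many proteasome genes are known targets of Nfe2l1, which binds antioxidant response elements. The promoters of the catalytic genes Psmb5 and Psmb6 and of the activator Psme4 are shown because the first pair fell and Psme4 rose in the main comparison, and because all 3 hold the core of that element, TGACNNNGC. With an offset for transcript length and GC content none of the 3 passed (adjusted p = 0.232, 0.884 and 0.477, edgeR). Psmc6, Psmd9 and Psmd12 also hold the core and are not shown. A link between the element and the expression values was not tested. The sequences are from RefSeq on GRCm38.p6, each with 200 bases before and 20 bases after the transcript start, and run 5′ to 3′ on the gene's strand. Capitals mark the match. The Psmb5 window is chr14:54617976-54618195 on the minus strand with the match beginning 47 bases before the start, the Psmb6 window is chr11:70525157-70525376 on the plus strand with the match beginning 9 bases before it, and the Psme4 window is chr11:30771575-30771794 on the plus strand with the match, which is on the reverse strand, beginning 7 bases before it.
Psmb5: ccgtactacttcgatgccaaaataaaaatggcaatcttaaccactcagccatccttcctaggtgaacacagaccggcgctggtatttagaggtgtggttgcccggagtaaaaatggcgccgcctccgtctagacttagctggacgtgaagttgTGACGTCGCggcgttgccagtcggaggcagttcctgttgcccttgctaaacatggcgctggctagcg
Psmb6: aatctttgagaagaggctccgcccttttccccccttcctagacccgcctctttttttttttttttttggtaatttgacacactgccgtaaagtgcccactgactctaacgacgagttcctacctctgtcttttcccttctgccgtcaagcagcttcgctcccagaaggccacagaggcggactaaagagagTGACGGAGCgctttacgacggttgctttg
Psme4: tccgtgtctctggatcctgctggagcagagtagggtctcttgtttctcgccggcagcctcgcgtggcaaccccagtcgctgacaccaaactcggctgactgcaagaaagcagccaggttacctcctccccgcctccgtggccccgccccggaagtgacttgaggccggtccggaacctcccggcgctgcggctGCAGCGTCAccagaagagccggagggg

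Over 300-base windows, RefSeq promoters were given for 38 of the 45 genes (41 windows), and those of Psma8, Psmb1, Psmb2, Psmb7, Psmc3, Psmd3 and Psmd7 were not analysed here. On either strand, TGACNNNGC was in 6 of the 41 windows (14.6%), against 14.6% of the windows of all tested genes and 12.4% of all windows. It was in 2 of 16 core windows (Psmb5 and Psmb6) and in 4 of 25 regulatory windows (Psmc6, Psmd9, Psmd12 and Psme4). The AP-1 type site TGAGTCA was in 1 window (Psmd9; 2.44% against 3.44% of the windows of tested genes), and it overlapped no TGACNNNGC match there. The CCAAT box, CCAAT, was in 8 of 16 core and 7 of 25 regulatory windows, against 37.5% of those of tested genes. The GC box, GGGCGG, was in 37.5% of core and 68.0% of regulatory windows, against 63.4%. These shares describe letters in short windows and were not tested.

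Each library held between 4065306 and 9815069 reads in genes (median 6601854). The 10 cardiomyocyte markers were present in every library at a summed level between 136453 and 174632 CPM (a gene's reads relative to the reads in all genes of its library, scaled with TMM factors). Tnnt2 was lower in Glut1 transgenic Tnnt2low than in Tnnt2high libraries (12660.5, 13140.4, 13904 and 13976 against 16086, 16177, 18731 and 20829.9 CPM). The difference was -0.42 on the log2 scale (SE 0.0906, adjusted p = 0.00723, edgeR). Of the 10 markers, 5 were called lower in this contrast, Tnnt2 among them, and Ryr2 was called higher (0.61, adjusted p = 0.00375, edgeR). With an offset for transcript length and GC content in the fit, none of the 10 was called (smallest adjusted p = 0.123, edgeR). In WT hearts Tnnt2 was 15741 and 16730.5 CPM in Tnnt2low and 16254 and 17201 CPM in Tnnt2high, which overlapped. Slc2a1, the mouse gene of GLUT1, lay between 33.5 and 92.5 CPM in the Glut1 transgenic libraries and between 13.3 and 28.9 CPM in the WT libraries, although the transgene itself is human. Slc2a1 did not pass the test between genotypes in Tnnt2low (log2 difference 1.75, adjusted p = 1) or Tnnt2high cells (1.60, adjusted p = 0.899). The unadjusted p-values were 0.000848 and 0.0018 (edgeR). The study itself lists Slc2a1 among the genes upregulated in Glut1 transgenic cells of both populations. Leukocytes are known for immunoproteasomes, and their 10 markers summed to between 0 and 10.5 CPM over all libraries.

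Of the 45 genes, 41 passed the filter on low counts, 15 core and 26 regulatory, of 12252 genes that passed in all. The 4 genes that did not pass were the inducible Psmb8 and Psmb9, thymic Psmb11 and testicular Psma8. Psmb8 had 18 reads over the 12 libraries, with no read in any Glut1 transgenic Tnnt2low library and at most 10 reads in a library. Psmb9 had 13 reads in 3 libraries, Psmb11 had 3 reads in 1 library and Psma8 had 39 reads in 9 libraries. A count of 0 allows a level of up to between 0.287 and 0.821 CPM depending on the library (3 reads, counting error only). Absence of these genes was therefore not shown where a library had no read. Psmb10, the inducible subunit with trypsin-like activity, was the exception among the inducible genes, with 33.8 to 73.6 CPM in every library.

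Levels were compared between genes as CPM per kilobase of exon, averaged over the 12 libraries. Psme1, a subunit of the activator that docks on the core without ATP, was the highest (269.8 CPM per kb), followed by the catalytic Psmb6 (214) and the ubiquitin receptor Psmd4 (169). Psme1 stood at 203 ± 9.62 CPM per kb in Glut1 transgenic Tnnt2low, 333 ± 25.96 in Glut1 transgenic Tnnt2high, 248 ± 39.1 in WT Tnnt2low and 299 ± 37.3 in WT Tnnt2high (mean ± SD, n = 4, 4, 2 and 2). Psmb6 stood at 166 ± 14.8, 270.3 ± 24.1, 176 ± 40.1 and 238 ± 31.8 in the order of groups above, below Psme1 by more than either SD in all 4 groups. Psmd4 stood at 142 ± 5.94, 201 ± 20.5, 153 ± 23.1 and 174 ± 6.495, and in WT Tnnt2low it did not differ from Psmb6 beyond the spread. The base-assembly chaperones were the lowest of the tested genes, with Psmd5 at 5.87, Psmd10 at 7.599 and Psmd9 at 8.82 CPM per kb. By role, the median was 91.9 CPM per kb for the 7 β genes, 65.2 for the 7 α genes, 71.1 for the 6 ATPases and 56.9 for the 8 lid genes. Psmb10 (39.6 CPM per kb) was below its constitutive counterpart Psmb7 (93.99).

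**Figure D1:**
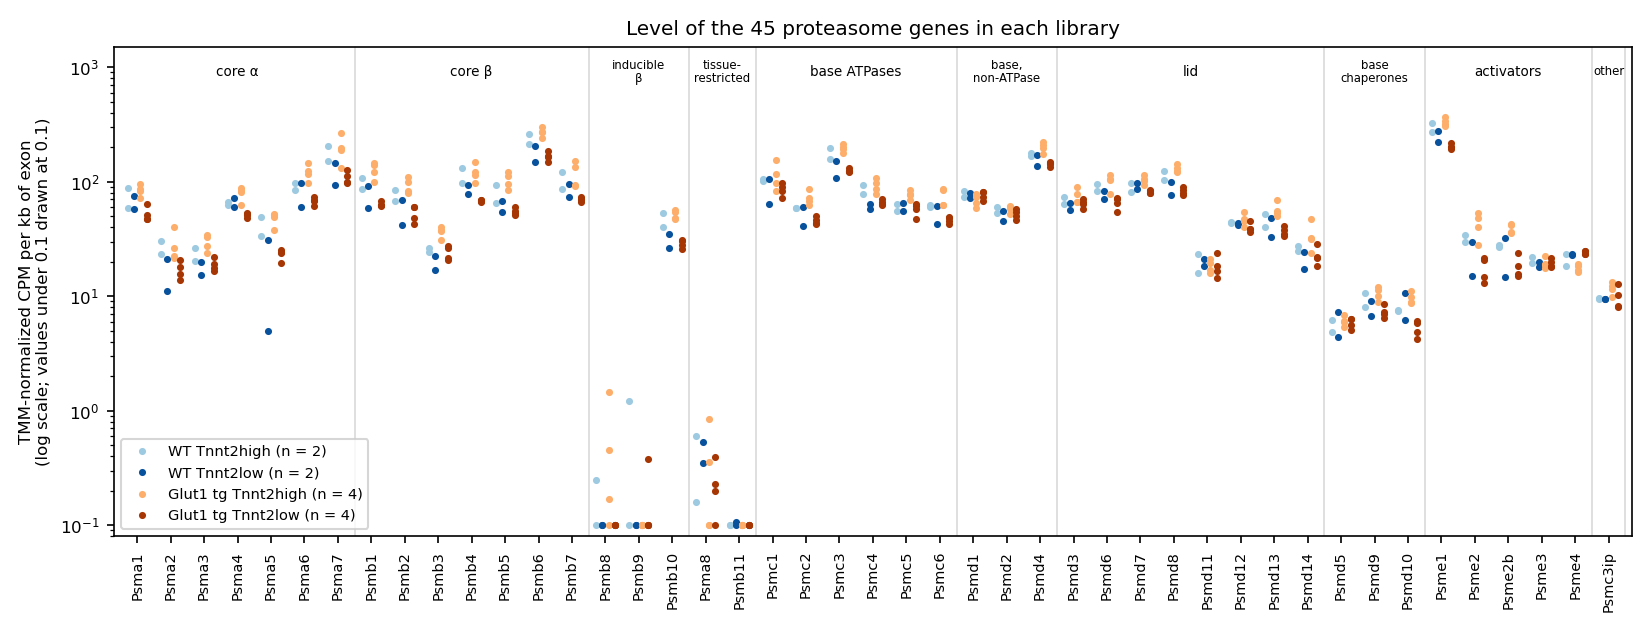
Level of the 45 proteasome genes in each of the 12 libraries, as TMM-normalized CPM per kb of exon on a log axis, ordered by role; each point is a library and values under 0.1 are drawn at 0.1. Most subunits lie within 10 to 300 CPM per kb, Psmb8, Psmb9, Psma8 and Psmb11 lie near 0, and the Glut1 transgenic Tnnt2low points (dark brown) lie below the Tnnt2high points (light orange) for all 15 tested core genes.

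Tnnt2low and Tnnt2high cardiomyocytes of the Glut1 transgenic hearts were compared first, as the contrast with the most libraries. Proteasome genes were lower in Tnnt2low cells, and core genes more uniformly so than regulatory genes. Of the 41 tested genes, 28 passed the quasi-likelihood test of edgeR (adjusted p under 0.05), against 16.7% of all tested genes, 27 of them lower (against 8.33% of all tested genes) and 1 of them higher (against 8.42%). Among core genes 13 of 15 fell and none rose, and among regulatory genes 14 of 26 fell and 1 rose, Psme4. The median log2 difference was -0.82 for core genes, -0.50 for regulatory genes and -0.01 for all tested genes. In bulk libraries, a lower share of cells that express a gene and less of its RNA per cell cannot be told apart. With an offset for transcript length and GC content in the fit, 1 of the 28 calls was left, Psmb1, and the values are given with those for length.

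All 7 β genes of the constitutive core fell, and Psmb1, a structural β subunit (chr17:15475021-15499751 on mm10), had the smallest p of all members. Psmb1 was at 107, 109, 110.0 and 119 CPM in the 4 Glut1 transgenic Tnnt2low libraries and at 175, 215, 243 and 254 CPM in the 4 Tnnt2high libraries. The groups did not overlap, and the difference was -0.99 on the log2 scale (SE 0.157, adjusted p = 0.00199), with Psmb1 lower in Tnnt2low in all 4 hearts. The chymotrypsin-like catalytic gene Psmb5 was at 46.3, 47.9, 49.5 and 53.8 CPM in Tnnt2low and 76.2, 85.3, 101 and 109 CPM in Tnnt2high, a difference of -0.91 on the log2 scale (SE 0.158, adjusted p = 0.00285). The caspase-like gene Psmb6 was at 118, 131, 135 and 147 against 192, 216, 217 and 239 CPM, a difference of -0.70 on the log2 scale (SE 0.133, adjusted p = 0.00411). The trypsin-like gene Psmb7 was at 76.6, 80.5, 82.3 and 85.2 against 106, 109, 157 and 176 CPM, a difference of -0.75 on the log2 scale (SE 0.178, adjusted p = 0.0109). None of the 3 catalytic genes had overlapping groups. Psmb10, the inducible counterpart of Psmb7, fell from 61.5, 62.6, 71.5 and 73.6 CPM in Tnnt2high to 33.8, 36.7, 40.1 and 40.7 CPM in Tnnt2low (log2 difference -0.83, SE 0.149, adjusted p = 0.00337). The structural genes Psmb2, Psmb3 and Psmb4 fell by 0.82, 0.61 and 0.82 on the log2 scale. The call for Psmb3 was lost with a replicate block (adjusted p = 0.0558) and on leaving out any Glut1 transgenic library other than the replicates 4 (adjusted p up to 0.103).

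Of the 7 α genes, which build the outer rings of the core, 5 fell. Their log2 differences were -0.86 for Psma7, -0.82 for Psma6, -0.69 for Psma1, -0.66 for Psma3 and -0.64 for Psma4. Without Glut1 transgenic Tnnt2high replicate 2, Psma3 had an adjusted p of 0.0507. Psma5 and Psma2 did not pass the test. Psma5 was at 24.2, 29.3, 30.1 and 31.2 CPM in Tnnt2low and 47.2, 61.1, 62.98 and 65.2 CPM in Tnnt2high, a difference of -1.04 on the log2 scale (SE 0.351, adjusted p = 0.0548), with no overlap between the groups. Psma2 differed by -0.69 on the log2 scale (SE 0.235, adjusted p = 0.0564). All 15 tested core genes were lower in Tnnt2low in each of the 4 hearts, with no overlap between the 4 Tnnt2low and the 4 Tnnt2high libraries, whereas 10.9% of all tested genes had all Tnnt2low libraries below all Tnnt2high libraries. Psmb5, Psmb3 and Psma5 share 68.7%, 67.3% and 64.5% of their 30-base words with transcripts of other genes, so their counts are uncertain. Without the 15 tested members that share 5% or more, 7 of 7 core genes and 11 of 19 regulatory genes fell and Psme4 rose.

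Most ATPases of the base fell too. Psmc2, Psmc3, Psmc4, Psmc5 and Psmc6 fell, by 0.67, 0.65, 0.49, 0.43 and 0.68 on the log2 scale, and Psmc1 differed by -0.39 on the log2 scale (SE 0.193, adjusted p = 0.180). Psmc3, the most abundant ATPase gene, was at 199, 202, 204 and 216 CPM in Tnnt2low and 293, 318, 329 and 347 CPM in Tnnt2high (log2 difference -0.65, SE 0.127, adjusted p = 0.00461). Its groups did not overlap. The call for Psmc5 was lost on leaving out any Glut1 transgenic library but Tnnt2low replicate 3 (adjusted p up to 0.135), and that for Psmc4 without Tnnt2low replicate 1, Tnnt2high replicate 1 or Tnnt2high replicate 2 (adjusted p up to 0.0630). The large scaffold genes of the base, Psmd1 and Psmd2, which organize the docking of ubiquitin carriers, did not pass the test. Psmd1 was at 210.3, 227, 251 and 252 CPM in Tnnt2low and 183, 205, 229.9 and 242 CPM in Tnnt2high, overlapping groups with a difference of 0.13 on the log2 scale (SE 0.119, adjusted p = 0.501). Psmd2 differed by -0.16 on the log2 scale (SE 0.120, adjusted p = 0.410). The third non-ATPase gene of the base, the ubiquitin receptor Psmd4, fell from 234, 265, 279 and 300.1 to 179.7, 189.5, 194 and 198 CPM (log2 difference -0.50, SE 0.114, adjusted p = 0.00914).

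Of the 8 lid genes, Psmd8, Psmd13, Psmd6 and Psmd7 fell, by 0.64, 0.64, 0.62 and 0.35 on the log2 scale. Psmd7 was not called with a replicate block (adjusted p = 0.0684) or on leaving out any Glut1 transgenic or WT Tnnt2low library (adjusted p up to 0.110). Psmd8 had the smallest p of these and was at 117, 120.5, 129 and 137 CPM in Tnnt2low against 183, 187, 199 and 217 CPM in Tnnt2high (log2 difference -0.64, SE 0.125, adjusted p = 0.00445). The deubiquitinase gene Psmd14 differed by -0.57 on the log2 scale (SE 0.207, adjusted p = 0.0723) and was lower in Tnnt2low in 3 of 4 hearts. Psmd3, Psmd12 and Psmd11 differed by -0.23, -0.22 and 0.00 on the log2 scale and overlapped between the groups. Among the base chaperones, Psmd10, known also as gankyrin, fell from 12.7, 13.1, 14.4 and 16.2 to 6.27, 7.18, 8.51 and 8.88 CPM (log2 difference -0.86, SE 0.249, adjusted p = 0.0294), whereas Psmd9 differed by -0.54 on the log2 scale (SE 0.189, adjusted p = 0.0635) and Psmd5 by -0.05 on the log2 scale (SE 0.189, adjusted p = 0.887). Psmd10 was not called on leaving out Tnnt2low replicate 1, 2 or 4 or Tnnt2high replicate 1 or 2 (adjusted p up to 0.0811). Psmc3ip, which is no subunit, differed by -0.25 on the log2 scale (SE 0.224, adjusted p = 0.485).

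The activator genes split. Psme1 and Psme2, which together form the interferon-responsive activator and lie close together (chr14:55578123-55581529 and chr14:55587441-55591113 on mm10), both fell. Psme1 was at 216, 223, 225 and 241 CPM in Tnnt2low and 344, 352, 376 and 408 CPM in Tnnt2high, a difference of -0.71 on the log2 scale (SE 0.113, adjusted p = 0.00202). Psme2 was at 12.7, 14.2, 20.1 and 20.9 against 27.3, 39.2, 47.2 and 52.3 CPM, with a difference of -1.29 on the log2 scale (SE 0.257, adjusted p = 0.00514), the largest log2 difference of all 41 genes in size. Psme2b (chr11:48945354-48946190), a near-identical copy of Psme2, differed by -1.10 on the log2 scale (SE 0.236, adjusted p = 0.00723). It shares 79.0% of its 30-base words, and Psme2 63.8%, chiefly with each other, so the reads of this pair cannot be assigned with certainty. Psme3, the nuclear activator, did not pass the test, with 48.1, 48.95, 52.4 and 57.1 CPM in Tnnt2low, 47.2, 50.3, 51.2 and 60.3 CPM in Tnnt2high and a difference of -0.02 on the log2 scale (SE 0.132, adjusted p = 0.953). Psme4, which encodes the large activator PA200 (chr11:30771726-30880361), was the only member that rose. It was at 151, 152, 160.4 and 163 CPM in the 4 Tnnt2low libraries and at 106, 109, 119 and 124 CPM in the 4 Tnnt2high libraries, a difference of 0.45 on the log2 scale (SE 0.116, adjusted p = 0.0170), higher in Tnnt2low in 4 of 4 hearts with no overlap. Without Glut1 transgenic Tnnt2low replicate 1 the value for Psme4 was 0.44 with an adjusted p of 0.0506. All Tnnt2low libraries stood above all Tnnt2high libraries for 11.2% of all tested genes, and Psme4 was the only member among them. Of the other regulatory genes, 15 had all Tnnt2low libraries below all Tnnt2high libraries and 10 overlapped. Exon lengths were 1112, 976, 837, 2664 and 6491 bases for Psme1, Psme2, Psme2b, Psme3 and Psme4. With an offset for transcript length and GC content their log2 differences were -0.20, -0.73, -0.48, 0.03 and 0.17. None of these passed (adjusted p = 0.276, 0.129, 0.254, 0.936 and 0.477, edgeR), so the split was not shown apart from length.

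**Figure D2:**
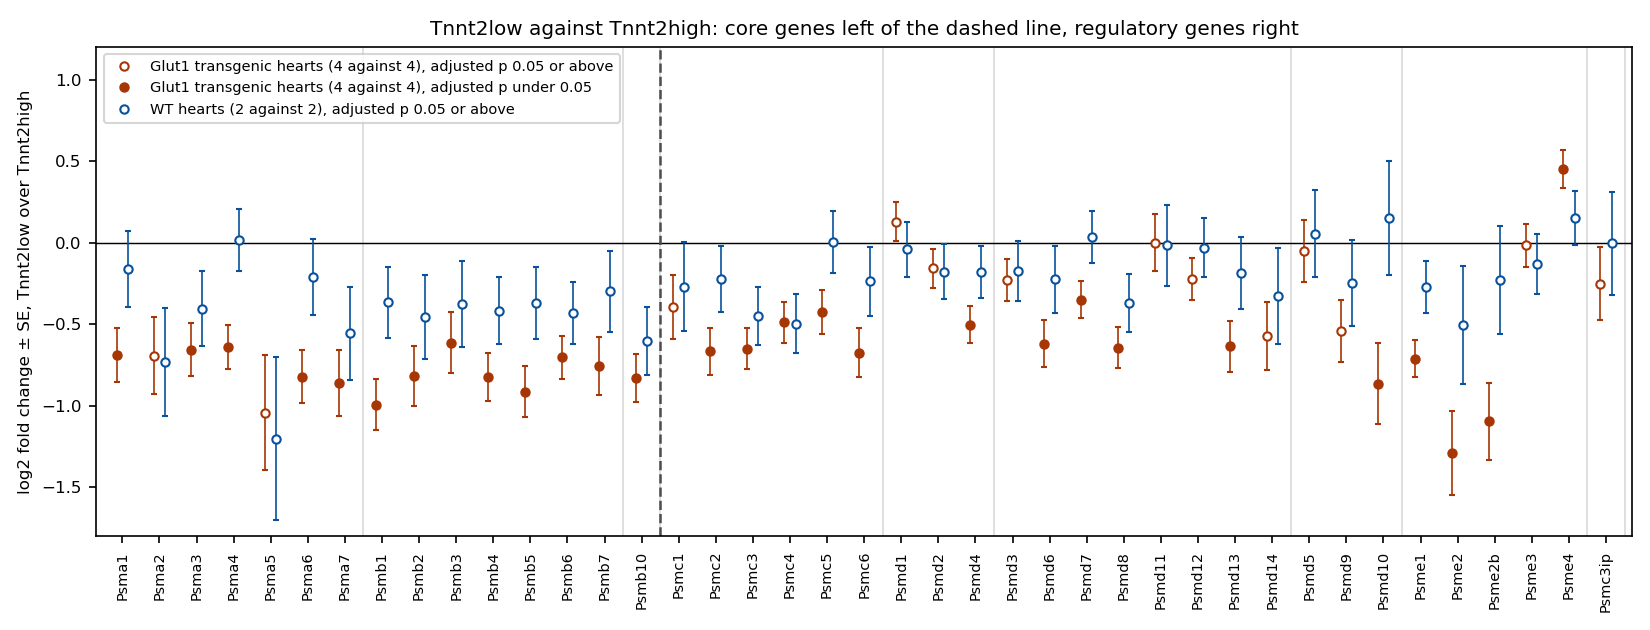
Log2 difference between Tnnt2low and Tnnt2high libraries for the 41 tested genes, with the standard error of the fit as bars, in Glut1 transgenic hearts (brown; filled where the adjusted p is under 0.05) and WT hearts (blue). All 15 core genes lie below 0 in Glut1 transgenic hearts, regulatory genes range from -1.29 (Psme2) to 0.45 (Psme4), and no WT point is filled.

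Summed levels of both classes were lower in Tnnt2low cells of Glut1 transgenic hearts, and that of the core by the larger share. The core genes together took 932, 977, 1009 and 1037 CPM in the 4 Glut1 transgenic Tnnt2low libraries and 1426, 1624, 1833 and 2007 CPM in the 4 Tnnt2high libraries, with means of 989 ± 45.3 (SD, n = 4) and 1723 ± 252 (SD, n = 4). The regulatory genes took 2478, 2522, 2522 and 2611 CPM and 3115, 3244, 3445 and 3618 CPM, with means of 2533 ± 55.7 (SD, n = 4) and 3355 ± 222 (SD, n = 4). Both sums were lower in Tnnt2low in every heart, without overlap. The ratio of regulatory to core CPM was 2.498, 2.52, 2.54 and 2.71 in Tnnt2low and 1.803, 1.88, 1.997 and 2.18 in Tnnt2high, so it was higher in Tnnt2low in all 4 hearts. In WT libraries the ratio was 2.596 and 2.28 in Tnnt2low and 1.90 and 2.33 in Tnnt2high (pairs 1 and 2), higher in Tnnt2low in pair 1 and lower in pair 2. Heart by heart, the median log2 difference of the 15 core genes was -1.13, -0.75, -0.70 and -0.42, and that of the 26 regulatory genes was -0.68, -0.45, -0.35 and -0.31, in Glut1 transgenic hearts 1 to 4. The core median was the lower in each heart. The difference between the classes was not tested.

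**Figure D3:**
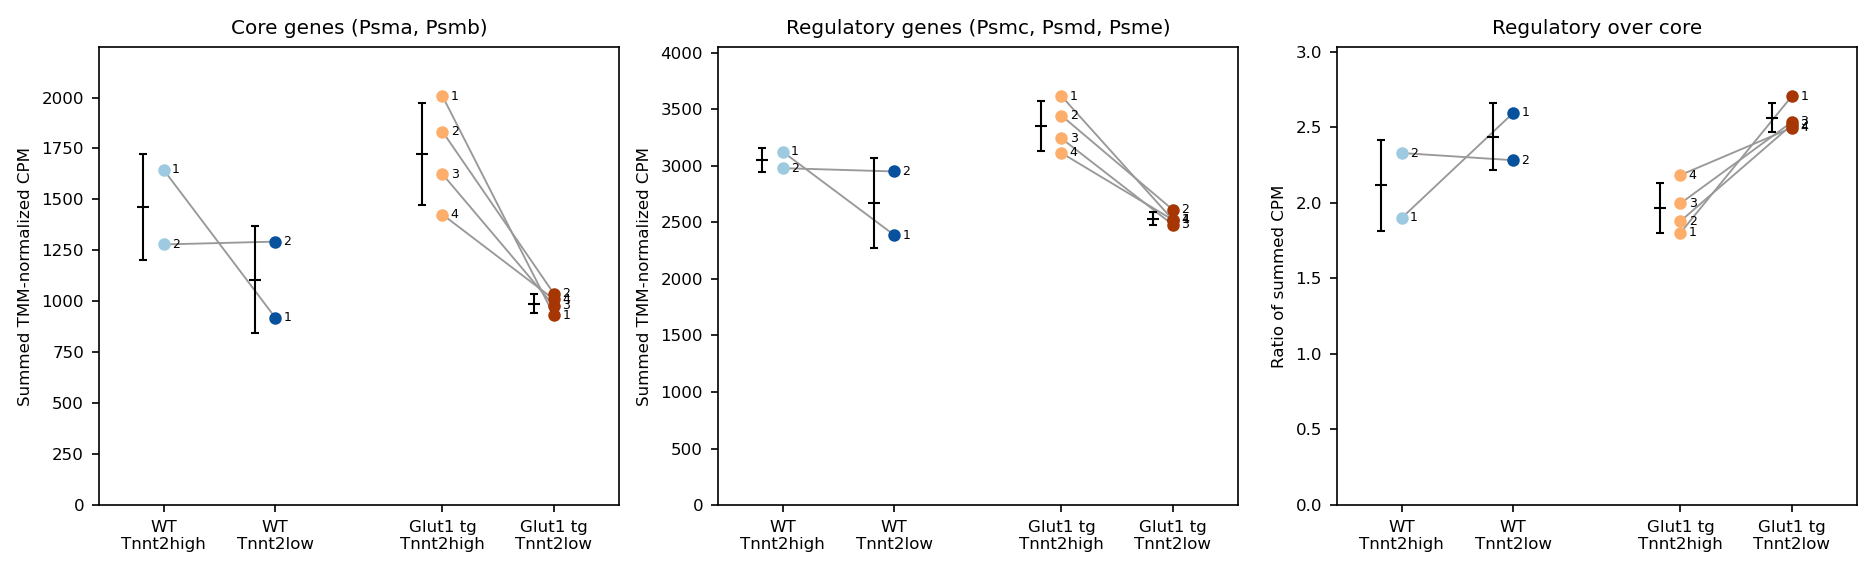
Summed TMM-normalized CPM of the core genes (left) and the regulatory genes (middle) and their ratio (right) in each library, with lines joining the populations of a heart or WT pair, numbers naming the replicate and bars giving mean ± SD (n = 2 for WT, n = 4 for Glut1 transgenic). The Glut1 transgenic Tnnt2low core sums lie between 932 and 1037 CPM, below the Tnnt2high sums of 1426 to 2007 CPM, and the ratio is higher in Tnnt2low in all 4 hearts. No offset for length was applied to these values.

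The log2 differences moved with transcript length. Over all 12189 tested genes with a known exon length, longer genes had the higher values (Spearman's rho 0.53 across genes, which share the same 8 libraries), and over the 41 members rho was 0.65. It was 0.67 over the 26 regulatory genes and -0.12 over the 15 core genes. Core genes were short, with a median exon length of 1165 bases against 1614 for regulatory genes and 3205 for all tested genes, and Psme4 was the longest of all 45 at 6491 bases. Reads outside exons also differed between the populations, at 0.962 ± 0.0758 per read in a gene in Glut1 transgenic Tnnt2low and 2.38 ± 0.169 in Tnnt2high (SD, n = 4 each). Fibroblast markers (8 genes) summed to between 46.4 and 99.8 CPM in Glut1 transgenic Tnnt2low and between 149 and 898 CPM in Tnnt2high and none of the 8 was at 0 in all 12 libraries, although Tcf21 was at 0 in both WT Tnnt2low libraries. Endothelial markers (8 genes) summed to between 8.60 and 76.2 CPM in Glut1 transgenic Tnnt2low and between 29.5 and 237 CPM in Tnnt2high, and to between 13.3 and 83.5 CPM in WT Tnnt2low and between 15.9 and 322 CPM in WT Tnnt2high. In Glut1 transgenic hearts all 8 fibroblast genes had a negative log2 difference (median -2.65, 5 called lower), as did all 8 endothelial genes (median -2.23, 0 called and 5 lower at an unadjusted p under 0.05, edgeR). In WT the fibroblast markers summed to between 107 and 152 CPM in Tnnt2low and between 103 and 465 CPM in Tnnt2high, and outside-exon reads were 1.31 ± 0.258 and 1.67 ± 0.228 per read in a gene (SD, n = 2 each). The part of these differences in the result was not tested beyond an offset for length and GC content. Over the core genes alone, the value after the offset fell with length (rho -0.82, n = 15). With that offset, 34 of 41 members still had a negative value, the medians were -0.30 for core, -0.19 for regulatory and 0.01 for all genes, and 1 member passed, Psmb1 at -0.71 (SE 0.131, adjusted p = 0.0285), against 0.812% of all genes called lower. Psmb5, Psmb6 and Psmb7 were then at -0.30 (SE 0.126, adjusted p = 0.232), -0.05 (SE 0.118, adjusted p = 0.884) and -0.26 (SE 0.135, adjusted p = 0.343), and Psme4 was at 0.17 (SE 0.116, adjusted p = 0.477). An offset for length alone also left Psmb1 alone, and an offset for GC content alone gave 27 calls, 26 of them among the 28, all from edgeR's quasi-likelihood test.

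**Figure D4:**
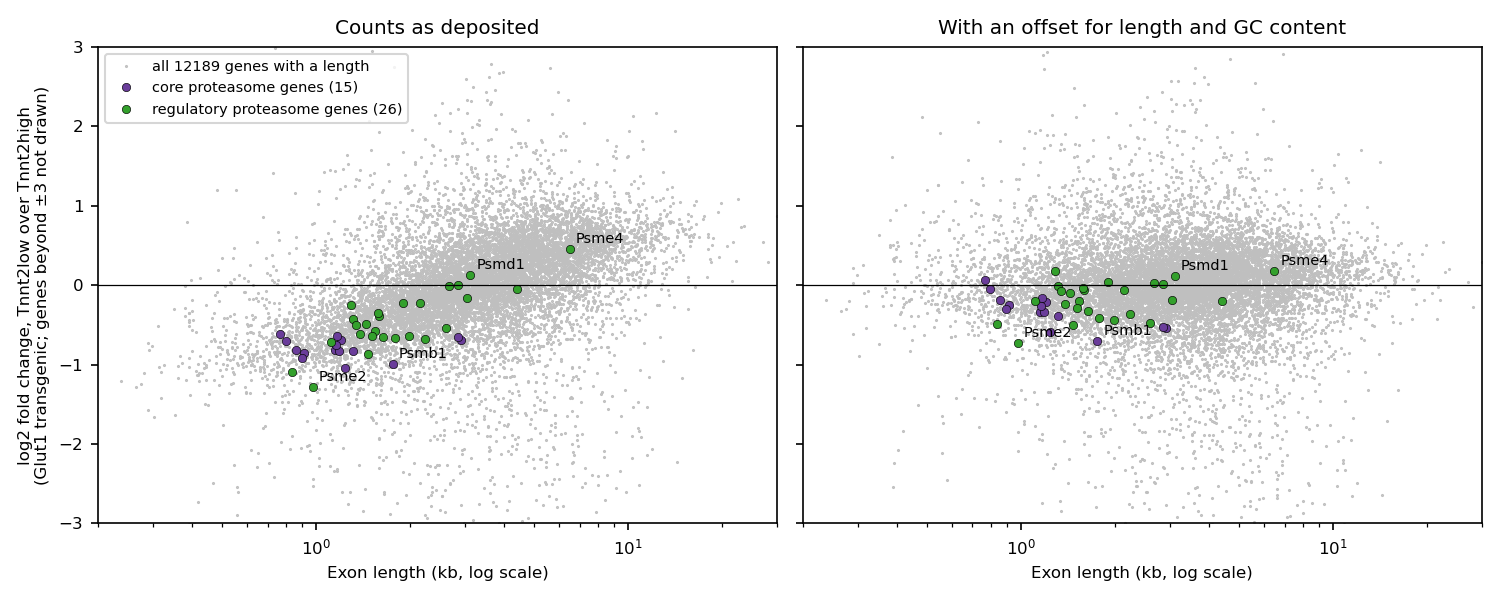
Log2 difference between Tnnt2low and Tnnt2high in Glut1 transgenic hearts against exon length in kb (log axis), for all tested genes (grey), core genes (purple) and regulatory genes (green), from the counts as deposited (left) and after the length and GC offset (right). The rise with length (rho 0.53 over all genes) is 0.10 with the offset, where the core genes' median is -0.30 and Psmb1 is the only member that passes the test.

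In WT hearts the same contrast had 2 libraries per population and gave no call. No member passed (0% of all tested genes), and none passed with DESeq2. Over the 41 genes 35 had a negative value, with medians of -0.40 for core, -0.18 for regulatory and 0.00 for all genes. At an unadjusted p under 0.05, 4 core and 2 regulatory genes were lower (against 1.91% of all tested genes) and none higher. These were Psmb10 (log2 difference -0.60, SE 0.210), Psmc4 (-0.50), Psmc3 (-0.45), Psma5 (-1.20), Psmb6 (-0.43) and Psma2 (-0.73), each with an adjusted p of 1 from edgeR. Psmb5 and Psmb7 differed by -0.37 (SE 0.222) and -0.30 (SE 0.250).

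The WT pairs did not behave alike. In pair 1, 14 of 15 core and 23 of 26 regulatory genes were lower in Tnnt2low, with medians of -0.79 and -0.35. In pair 2, 9 of 15 and 14 of 26 were lower, with medians of -0.036 and -0.002. Psmb10 was at 34.7 CPM in Tnnt2low against 70.3 CPM in Tnnt2high in pair 1 and at 45.8 against 52.2 CPM in pair 2, lower in both. Psmb5 was at 49.3 against 84.1 CPM in pair 1 and at 61.02 against 58.7 CPM in pair 2, lower in pair 1 and slightly higher in pair 2. Psma5 stood apart in a single library, at 6.11 CPM (41 reads) in WT Tnnt2low replicate 1 against 38.6 to 61.1 CPM in the other WT libraries. All WT Tnnt2low libraries were below all WT Tnnt2high libraries for 8 core and 6 regulatory genes (against 14.9% of all tested genes). Leaving out WT Tnnt2low replicate 2 let Psma5 pass (log2 difference -3.07, SE 0.357, adjusted p = 0.00632, edgeR), with the remaining library assumed to vary like the other groups, and moved the core median to -0.62. The core median was -0.21 without Tnnt2low replicate 1, -0.21 without Tnnt2high replicate 1 and -0.58 without Tnnt2high replicate 2. The regulatory median ranged from -0.35 without Tnnt2low replicate 2 to -0.033 without Tnnt2low replicate 1.

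Between genotypes, no member passed in either population. The study lists the Y-linked genes Ddx3y, Eif2s3y and Uty among those higher in Glut1 transgenic than in WT cells in both populations. Its methods name males and females, so the genotypes may also differ in sex. The part of sex in the values between genotypes and in the interaction was not tested. Psmd10 lies on chromosome X. In Tnnt2low cells, 1 gene of all tested passed (0.00816%), and it was not a member. Of the members, 11 of 15 core and 17 of 26 regulatory genes had a lower value in Glut1 transgenic hearts, with medians of -0.15 and -0.09. At an unadjusted p under 0.05 there were 2 lower members (against 1.16% of all genes), Psmd10 (log2 difference -0.67, SE 0.295) and Psma4 (-0.37, SE 0.162). Next by p were Psme1 (-0.28), Psmb4 (-0.33), Psma1 (-0.33) and Psmb1 (-0.25), all with an adjusted p of 1. Psmd10 was at 6.27, 7.18, 8.51 and 8.88 CPM in the Glut1 transgenic and 9.08 and 15.6 CPM in the WT Tnnt2low libraries. All Glut1 transgenic libraries were below both WT libraries for 2 core genes (Psma4 and Psmb4) and 3 regulatory genes (Psmd7, Psmd10 and Psme1), against 6.02% of all tested genes. The catalytic genes Psmb5, Psmb6 and Psmb7 differed by -0.16, -0.08 and -0.27, and Psmb10 by -0.09, all with groups that overlapped. These values rest on the 2 WT libraries: without WT Tnnt2low replicate 2 the medians were 0.17 for core and 0.12 for regulatory genes, and without replicate 1 they were -0.38 and -0.26.

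In Tnnt2high cells the values lay on the other side of 0, with 0% of all genes called. All 15 core genes and 22 of 26 regulatory genes were higher in Glut1 transgenic hearts, with medians of 0.20 and 0.18. At an unadjusted p under 0.05, 2 members were higher (against 2.17% of all genes), Psmb3 (log2 difference 0.53, SE 0.233) and Psmc5 (0.37, SE 0.166), both with an adjusted p of 0.899. Psma6, Psmb5, Psmb1 and Psme2b followed, with 0.40, 0.38, 0.38 and 0.51 on the log2 scale. Psmb6, Psmb7 and Psmb10 differed by 0.19, 0.19 and 0.14. Psmc5 was at 91.7, 102, 102 and 112 CPM in the Glut1 transgenic and 73.1 and 84.7 CPM in the WT Tnnt2high libraries, which did not overlap. All Glut1 transgenic libraries were above both WT libraries for Psmb3 and for 5 regulatory genes (Psmc2, Psmc3ip, Psmc5, Psmd10 and Psme2b), against 5.9% of all tested genes. Without replicate 1 of WT Tnnt2high the median over core genes rose to 0.46, and leaving out its replicate 2 gave 0.063. DESeq2 called no member in either population.

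Whether the difference between populations itself differed between genotypes was tested with an interaction term. No member passed (0% of all genes; none with DESeq2), and the median was -0.36 for core, -0.26 for regulatory and 0.01 for all genes. At an unadjusted p under 0.05, 5 members had a lower value in Glut1 transgenic hearts (against 2.2% of all genes), namely Psma4 (-0.66, SE 0.232), Psmd10 (-1.02, SE 0.428), Psmb1 (-0.63), Psme1 (-0.44) and Psma6 (-0.61), all with an adjusted p of 0.961 from edgeR. Psme2b followed with -0.87. Psma4 was at 69.7 and 83.4 CPM in WT Tnnt2low and 73.3 and 77.95 CPM in WT Tnnt2high, with 55.9, 59.04, 60.2 and 62.2 and 73.1, 95.5, 98.3 and 103 CPM in the Glut1 transgenic hearts. The fall of proteasome genes in Glut1 transgenic Tnnt2low cells was therefore not shown to differ from that in WT. The core median was -0.59 without WT Tnnt2low replicate 1, -0.035 without WT Tnnt2low replicate 2 and -0.22 without WT Tnnt2high replicate 2, and the regulatory median was -0.46 and -0.11 without the first and second of these. For Psmb5, Psmb6, Psmb7 and Psmb10 the interaction was -0.54, -0.27, -0.45 and -0.23.

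Other genes of the pathway, 57 tested of 62 listed, were counted in the same fits. In Glut1 transgenic hearts 7 of the 57 fell and 4 rose in Tnnt2low cells, beside 8.33% and 8.42% of all tested genes. The counts lie near these shares and are a description of the list, not a result about it. Of 8 genes listed for assembly and related functions, 3 fell. These were Pomp, which matures the core (log2 difference -0.72, adjusted p = 0.00987, edgeR), and the chaperones Psmg3 (-1.51) and Psmg4 (-0.62). AI314180 had the highest value of the 8 and did not pass (0.33, adjusted p = 0.0511, edgeR). Of 8 further genes of the regulatory particle, Shfm1, a small lid subunit outside the symbol pattern, fell (log2 difference -0.89, SE 0.164, adjusted p = 0.00344). Of 10 genes of interferon response and class I presentation, B2m, the light chain of class I molecules, fell (log2 difference -0.74, SE 0.230, adjusted p = 0.0405).

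The genes that rose were Nfe2l1, Huwe1, Nedd4 and Ubqln4, with exon lengths of 4867, 14579, 5499 and 3330 bases. Those named above as lower had exon lengths from 555 (Psmg4) to 1579 bases (Pomp), against a median of 3205 for all tested genes. Nfe2l1 is the transcription factor known to drive proteasome genes. It was at 309.7, 331, 347 and 362 CPM in Tnnt2low and 198, 199, 221 and 236 CPM in Tnnt2high, without overlap. The log2 difference was 0.66 (SE 0.120, adjusted p = 0.00340, edgeR), opposite in direction to most subunits, and a link between them was not tested. Nfe2l1 was the only one of 5 transcription factor genes that passed. Among 10 genes of ubiquitin ligases active in heart, Huwe1 (0.77, adjusted p = 0.00337) and Nedd4 (0.36) rose and Trim63 (-0.47), the muscle ligase MuRF1 that targets sarcomere proteins, fell. Among 10 genes of shuttles and segregases, Ubqln4 rose (log2 difference 0.69, SE 0.161, adjusted p = 0.0105). With the length and GC offset none of these 57 genes passed. In WT hearts, between genotypes and in the interaction, none of them passed with edgeR or DESeq2. Among the smallest p-values were those of Vcp (-0.43) in WT hearts, Usp18 (-2.51) and Ngly1 (0.55) between genotypes in Tnnt2low, Nfe2l1 (-0.32) and Huwe1 (-0.36) between genotypes in Tnnt2high, and Ubqln4 (0.61) in the interaction, all as log2 differences. Psmg4, B2m and Nedd4 lie outside the rule for named genes and were named after their values were seen.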

How the data were processed

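Cardiomyocytes of 4 groups were profiled by RNA-seq in 12 libraries. The authors deposited raw read counts per gene. According to the study's methods, single-end reads were checked with FastQC, trimmed for quality, mapped with HISAT2 to mm10 and counted with HTSeq over the union of exons, and were tested with DESeq2. For the tool versions, the counting mode and the strand setting, no value was given in the sources used here, so reads of overlapping genes on opposite strands may be mixed. The 5 totals that name no gene were left out of library sizes and tests, and each library kept between 4065306 and 9815069 gene reads, between 16.2% and 36.4% of its records. The labels describe a tissue extract, whereas the methods describe sorted cells.

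Counts were fitted over all 12 libraries with edgeR 4.0.16 in R 4.3.3 (TMM factors, filterByExpr, 1 coefficient per group, quasi-likelihood test, Benjamini-Hochberg adjustment over 12252 genes, threshold 0.05). The script was tested on simulated data, which held no trend with length and no paired hearts, so that test does not cover these. The dispersion was estimated over all groups together, so p-values of WT contrasts also rest on the spread between Glut1 transgenic libraries. Where nothing says that libraries came from separate animals, as for the WT pairs, p-values do not measure a spread between animals. CPM per kb used exon lengths from GENCODE vM21 (24062 of 24421 genes matched, 678 by an older symbol), and the length and GC offset was a loess fit per library (span 0.3) over 12189 genes. Differences by heart used log2(CPM + 1). Shared sequence was the percent of a gene's 30-base words found in other genes' transcripts. Alternatives were DESeq2 1.42.0, relative log expression scaling, no filter, only the libraries compared, the offsets, a replicate block and leaving out each library. The labels give the Glut1 transgenic populations of a number the same heart, and these libraries were paired on that ground. Deviations from group means correlated by 0.107 to 0.226 within the Glut1 transgenic pairs. The WT pairs gave 0.271 each, values that must be equal because the deviations within a WT group are mirror images. Libraries of different hearts were not compared in this way, so the correlations do not test the pairing. The study's methods name no block, and the main fit has none.

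The members and gene lists were chosen with earlier results of these data known. Named were members past the threshold, or the 6 with the smallest p where fewer passed, the catalytic and inducible genes, the 3 highest and 3 lowest tested genes per kb, members not tested, up to 8 pathway genes past the threshold or else the 2 with the smallest p, and Tnnt2 and Slc2a1. Of the names listed for the pathway, 62 were in the files. The values of 1 pathway gene are not reported here, and it is kept in the counts.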

Additional observations from a re-analysis of the deposited data

Results flagged for a closer look

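Psmc5, an ATPase gene of the base, was lower in Tnnt2low than in Tnnt2high in all 4 Glut1 transgenic hearts and marginally higher in both WT pairs, where it was at 73.26 against 73.13 CPM in pair 1 and at 85.25 against 84.68 CPM in pair 2. The difference between genotypes, from the interaction term of edgeR, was -0.43 on the log2 scale (SE 0.231, adjusted p = 0.961) and did not pass the test. Among the 41 members, no library of the 82 groups of 4 stood apart by Dixon's criterion.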

How the results depend on the processing

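In Glut1 transgenic hearts, the length and GC offset moved the 28 calls between the populations to 1 (Psmb1), with 1 core and 0 regulatory genes lower. The same 1, 1 and 0 were obtained with the length offset alone and with the replicate block together with the length and GC offset. In the order of these 3 settings, the core median was -0.30, -0.31 and -0.30 and the regulatory median was -0.19, -0.19 and -0.19, and the pathway genes called fell to 0 with the length and GC offset. Over all genes that offset left 49 higher and 99 lower calls, in place of 1032 and 1020. It turned Psmb3 between populations to 0.069, Psmb10 and Psmb6 between genotypes in Tnnt2low to 0.021 and 0.057, Psmb6 between genotypes in Tnnt2high to -0.0043, and the interaction of Psmb6 to 0.061, and the cause was not tested. With the offset alone and with block and offset, the WT medians were -0.15 and -0.16 for core and -0.062 and -0.065 for regulatory genes, and the regulatory median of the interaction was -0.095 and -0.094.

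The replicate block alone gave 26 calls, without Psmb3 (adjusted p = 0.0558, edgeR) and Psmd7 (0.0684), with medians of -0.81 for core and -0.49 for regulatory genes, and -0.40 and -0.19 in WT. It changed no other call of a member. DESeq2 called 31 members, relative log expression scaling 28, no filter 26 and the fit of only the libraries compared 30.

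Leaving out 1 library at a time gave 22 to 29 calls in Glut1 transgenic hearts (core medians -0.86 to -0.68, regulatory medians -0.54 to -0.42), and calls were lost for Psma3, Psmb3, Psmc4, Psmc5, Psmd7, Psmd10 and Psme4 in at least 1 of these fits. In WT hearts it gave 0 to 1 calls, with core medians from -0.62 to -0.21 and regulatory medians from -0.35 to -0.033. Between genotypes in Tnnt2low the core median ranged from -0.38 to 0.17 and the regulatory median from -0.26 to 0.12, turning direction without WT Tnnt2low replicate 2. In Tnnt2high the core median ranged from 0.063 to 0.46 and the regulatory median from 0.14 to 0.25. For the interaction the ranges were -0.59 to -0.035 and -0.46 to -0.11. Of the recomputed counts, medians and summed levels, 330 stayed within 1.5 times the main count or within the spread between replicates of the main value, 33 moved further and 2 turned direction. Of the recomputed values for single genes, 208 kept their direction and side of the threshold, 28 lost the threshold and 5 turned direction. For Psma8, Psmb8, Psmb9 and Psmb11, a count of 0 allows a level of up to between 0.287 and 0.821 CPM, depending on the depth of the library.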
